A study of Homo sapiens with 8 samples.

Results

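The messenger RNAs of the nuclear-encoded subunits of respiratory complexes I to V were examined in A673, a cell line established from an Ewing Sarcoma that carries the EWS/FLI1 fusion and mutant p53, with and without JIB-04, an inhibitor of histone demethylases of the Jumonji type. The members were taken by gene name: NDUFA, NDUFB, NDUFC, NDUFS and NDUFV genes with a number for complex I, SDHA to SDHD for complex II, UQCR genes and CYC1 for complex III, COX4 to COX8 genes for complex IV and ATP5 genes for complex V, without names of pseudogenes. This gave 86 of the 65962 genes of the table, of which 37 fell in complex I, 4 in complex II, 10 in complex III, 17 in complex IV and 18 in complex V. JIB-04 at 2 μM (4 samples) and vehicle, which was DMSO (4 samples), were each given for 36 hours in the same medium, and poly(A) RNA was sequenced from all 8 samples. The study's methods call each group a quadruplicate, and neither they nor the labels say whether its 4 samples were separate cultures, so that p-values measure the spread between these samples only. In bulk RNA of this kind, fewer cells with a transcript and less of it in each cell cannot be told apart.

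Complex I takes electrons from NADH, complex II takes them from succinate, and both pass them to coenzyme Q. Complex III passes them on to cytochrome c and complex IV to oxygen, and complexes I, III and IV pump protons across the inner membrane of the mitochondrion. Complex V, the ATP synthase, uses that gradient to make ATP. Complexes I, III, IV and V each hold subunits encoded by the mitochondrial genome, their remaining subunits are nuclear, and complex II is wholly nuclear. Jumonji demethylases and the respiratory chain meet in metabolism, since these enzymes use oxygen and 2-oxoglutarate and are inhibited by succinate.

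Levels are given as FPKM (fragments of a transcript, scaled to its length and to the number of mapped fragments), as the authors calculated them. Changes are log2 fold changes of FPKM + 0.5, JIB-04 over vehicle, and a gene was taken as changed where limma gave a Benjamini-Hochberg adjusted p under 0.05 over 17460 genes, those whose mean reached 1 FPKM. FPKM summed to 1175410 to 1237190 in the JIB-04 samples and 1346290 to 1370440 in the vehicle samples. The relative depth read from the steps between low values was 0.768 to 0.927 with JIB-04 and 0.824 to 1 with vehicle, as a fraction of vehicle replicate 1, and counts of mapped reads were not used here, since the table holds none. The 13 mitochondrial-genome mRNAs held 3.60% to 4.33% of the FPKM with JIB-04 and 9.60% to 10.2% with vehicle. Rescaling FPKM to a common total (TPM) moved the median change over all genes up by 0.15 on the log2 scale, so small changes below are to be read against that shift. All 8 Ewing Sarcoma markers were expressed, with summed levels of 1794 to 2251 FPKM with JIB-04 and 3063 to 3334 FPKM with vehicle, and 6 were lower with JIB-04, CD99, the membrane marker of these tumors, among them (log2 fold change -0.95, limma adjusted p = 4.05e-08), while BCL11B was higher (log2 fold change 0.50, limma adjusted p = 0.000175) and NR0B1 did not pass (0.15). Of 7 markers of other cell types only DCN passed 1 FPKM on average (log2 fold change -0.98, limma adjusted p = 0.00137). PTPRC, EPCAM, ALB, MYH7 and CKM stayed below 1 FPKM and PECAM1 reached an average of 1.29 FPKM with JIB-04, and the 7 together summed to 3.98 to 4.96 FPKM with JIB-04 and 4.76 to 6.65 FPKM with vehicle.

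Most nuclear respiratory subunit genes were lower in JIB-04-treated cells than in vehicle-treated cells. Of the 80 members that passed the filter, 59 were lower, 7 were higher and 14 did not pass the test, whereas among all genes tested 38.0% were lower and 34.2% were higher. The members had a median log2 fold change of -0.41 and all genes tested one of -0.07. Falls were of modest size: 11 members were at least 2-fold lower, where 11.8% of all genes were, and 0 were at least 2-fold higher, where 13.1% of all genes were. In 57 members every JIB-04 sample lay below every vehicle sample, and in 7 every JIB-04 sample lay above, while the groups failed to overlap in these directions for 35.4% and 31.9% of all genes. Members were well expressed, 77 of the 80 with a mean of at least 50 FPKM, and of the 3967 protein-coding genes above that level 45.1% were lower and 39.8% were higher, with a median of -0.05. On the TPM scale 49 members were lower and 14 higher, against 31.1% and 40.4% of all genes, and the medians were -0.24 for members and 0.08 for all genes.

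Added over all members, subunit mRNA came to 21497, 21234, 20846 and 21518 FPKM with JIB-04, against 28342, 29704, 29185 and 28453 FPKM with vehicle. The 2 groups did not overlap, and the JIB-04 mean was 0.736 of the vehicle mean. As a share of all FPKM the members held 1.74% to 1.78% with JIB-04 and 2.10% to 2.17% with vehicle. By complex, the ratio of the summed FPKM was 0.757 for complex I, 0.863 for complex II, 0.710 for complex III, 0.799 for complex IV and 0.672 for complex V. Each of these sums was lower in every JIB-04 sample than in any vehicle sample. The sums are not scaled to a common total, and all FPKM together had a ratio of 0.892, close to the 0.863 of complex II. The sum of the 13 mRNAs made inside the mitochondrion had a lower ratio, 0.362, with 42312 to 53580 FPKM with JIB-04 and 129687 to 138416 FPKM with vehicle.

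**Figure D1:**
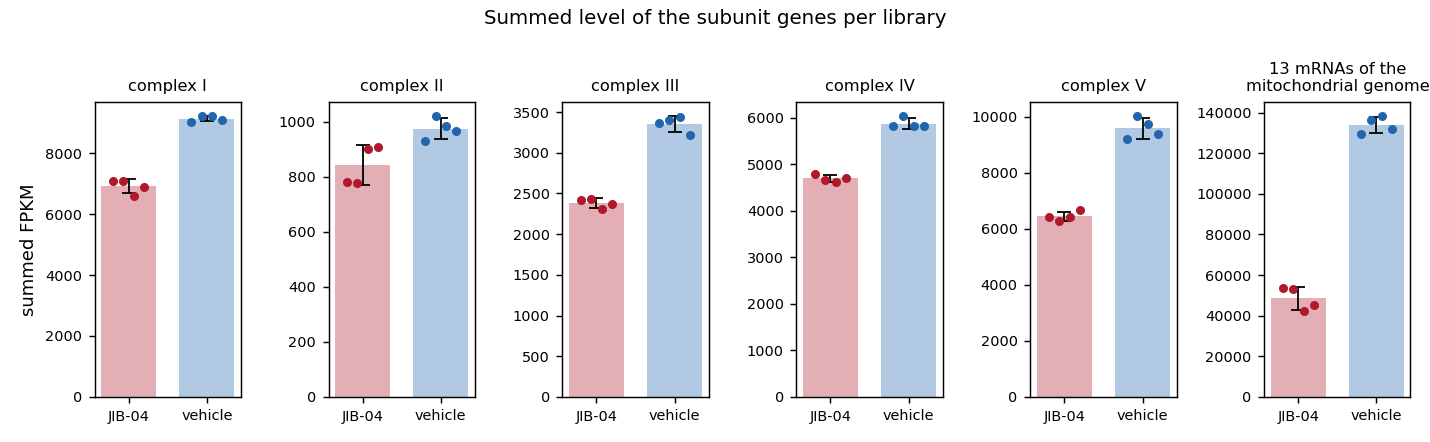
Summed FPKM of the genes of each complex and of the 13 mRNAs of the mitochondrial genome, with JIB-04 (left in each panel) and vehicle (right). Points are the 4 samples in the order of their replicate numbers, bars are means and lines are SD. In all 6 panels the JIB-04 samples lie below the vehicle samples, with a JIB-04 mean of 0.863 of the vehicle mean for complex II and 0.672 for complex V. The sums are not scaled to a common total, and for all FPKM together this ratio was 0.892.

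Across the complexes the counts ran from 15 of 18 genes lower and 0 higher in complex V to 1 lower and 1 higher of 4 in complex II. Complex I had 30 of 37 genes lower and 2 higher, complex III 7 of 10 lower and 1 higher, and complex IV 6 of 11 tested genes lower and 3 higher. Median log2 fold changes were -0.40, -0.14, -0.39, -0.36 and -0.69 for complexes I, II, III, IV and V, beside -0.07 for all genes. On the TPM scale they were -0.24, 0.03, -0.23, -0.20 and -0.53, beside 0.08 for all genes, so that complex II was then just above 0. Whether the complexes differ from each other was not tested.

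**Figure D2:**
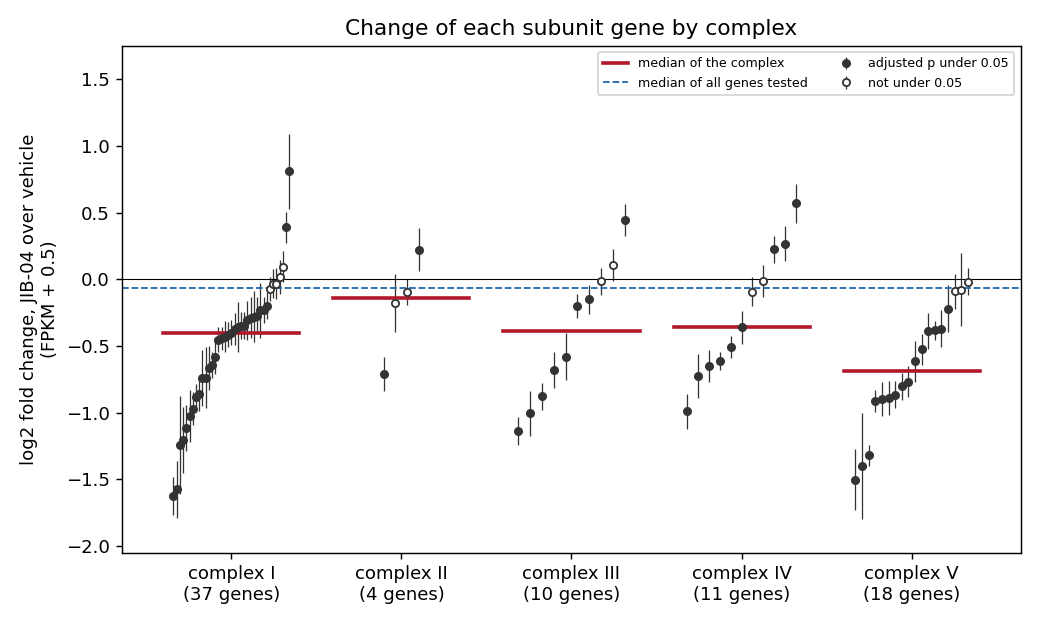
Log2 fold change (JIB-04 over vehicle, FPKM + 0.5) of the 80 tested subunit genes, ordered by size within each complex, with 95% confidence intervals from limma. Filled points passed the test and open points did not, the thick lines are medians of the complexes and the dashed line is the median of all genes tested, -0.07. Complex V has 15 filled points below 0 and 0 above it, and the highest point of the plot is NDUFA5 at 0.81.

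Regulatory sequence upstream of some of these genes is shown before their values, since several members of this group are known to share binding sites for NRF1, for ETS factors such as GABP and for YY1. Promoters from RefSeq (GRCh38.p14, from 250 bases before to 50 bases after the annotated start) were found for 67 of the 86 members. Where a gene had several RefSeq starts, as 9 of the 67 had, the one with most GENCODE 29 transcript starts within 250 bases was taken, and for 4 members there was none so near. They were searched on both strands for the NRF1 motif (GCGCA, any base, GCGC), the ETS motif CCGGAAG, the YY1 motif AAGATGG and the GC box GGGCGG, none of which contains another. The NRF1 motif was found in 23.9% of the member promoters, in 12.3% of the promoters of all tested genes that had one and in 6.36% of all 27305 RefSeq promoters. For the ETS motif the shares were 29.9%, 20.2% and 10.7%, for the YY1 motif 25.4%, 7.72% and 6.07%, and for the GC box 58.2%, 71.3% and 45.1%. Matches to the first 3 motifs stood in promoters of members of every outcome: the NRF1 motif in 12 of 46 that were lower, 2 of 11 that did not pass and 1 of 6 that were higher, the ETS motif in 14 of 46, 5 of 11 and 1 of 6, and the YY1 motif in 11 of 46, 4 of 11 and 2 of 6. The GC box was present in 30 of the 46 lower members (65.2%) and 2 of the 6 higher members (33.3%), and among all genes in 75.7% of those lower and 67.2% of those higher. A match is a string of letters and does not show that a factor was bound.

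The 120 bases before the start are printed for the member with the largest fall, for a fall in the catalytic head of the ATP synthase, for a fall with NRF1 and ETS matches, for an SDH gene with repeated NRF1 matches that did not pass the test, and for 2 rises. They are on GRCh38.p14, 5′ to 3′ on the strand of the gene, with NRF1, ETS and YY1 matches in capitals, for NDUFB10 (chr16:1959418-1959537, plus strand), ATP5A1 (chr18:46098297-46098416, minus), UQCR11 (chr19:1605463-1605582, minus), SDHA (chr5:218200-218319, plus), SDHD (chr11:112086753-112086872, plus) and NDUFA5 (chr7:123557819-123557938, minus).
NDUFB10 (lower): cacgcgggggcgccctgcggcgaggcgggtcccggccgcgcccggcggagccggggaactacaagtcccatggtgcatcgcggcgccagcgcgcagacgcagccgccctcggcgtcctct
ATP5A1 (lower): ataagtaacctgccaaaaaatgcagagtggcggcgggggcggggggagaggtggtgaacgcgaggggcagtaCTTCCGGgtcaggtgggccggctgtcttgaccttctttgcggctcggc
UQCR11 (lower): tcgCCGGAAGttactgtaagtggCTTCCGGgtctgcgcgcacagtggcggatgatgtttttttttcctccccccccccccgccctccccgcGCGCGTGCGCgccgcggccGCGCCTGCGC
SDHA (not passing): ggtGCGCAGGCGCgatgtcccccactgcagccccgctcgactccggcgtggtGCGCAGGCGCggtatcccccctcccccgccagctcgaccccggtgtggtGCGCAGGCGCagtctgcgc
SDHD (higher): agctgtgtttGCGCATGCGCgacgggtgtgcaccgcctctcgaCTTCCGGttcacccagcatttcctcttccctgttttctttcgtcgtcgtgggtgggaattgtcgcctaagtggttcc
NDUFA5 (higher): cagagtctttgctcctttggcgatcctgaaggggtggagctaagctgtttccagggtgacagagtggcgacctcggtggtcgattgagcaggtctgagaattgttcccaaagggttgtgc
NDUFB10 had no match to the NRF1, ETS or YY1 motif in this window, nor did NDUFA5, which moved the other way and had a YY1 match elsewhere in the searched promoter. ATP5A1 had 1 ETS match. UQCR11, with matches to both the NRF1 and the ETS motif, was lower (log2 fold change -0.58, limma adjusted p = 0.000108), and SDHD, also with both, was higher.

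Complex I held the largest rise and the largest fall of all members. The fall was that of NDUFB10 (ENSG00000140990), an accessory subunit of the membrane arm, which had 55.2, 51.1, 46.7 and 46.6 FPKM with JIB-04, against 154, 154, 149 and 162 FPKM with vehicle. Every JIB-04 sample was far below every vehicle sample (log2 fold change -1.63 with a standard error of 0.06 and a limma adjusted p of 3.1e-08). NDUFA7 (ENSG00000267855), an accessory subunit of the arm that reaches into the matrix, had 54.6, 55.1, 41.0 and 51.4 FPKM with JIB-04, against 152, 158, 154 and 139 FPKM with vehicle. NDUFS7 (ENSG00000115286), which holds the last iron-sulfur cluster before coenzyme Q, had 50.7, 48.3, 31.5 and 34.5 FPKM with JIB-04, against 108, 88.3, 85.0 and 105 FPKM with vehicle. The groups were apart for both genes, with log2 fold changes of -1.58 (limma adjusted p = 4.39e-07) and -1.24 (limma adjusted p = 8.53e-05), and JIB-04 replicates 3 and 4 were the lowest samples for NDUFS7.

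Catalytic and accessory subunits of complex I were both among the genes that were lower. NDUFV1, which binds NADH and the flavin, had 106, 98.8, 83.3 and 95.2 FPKM with JIB-04, against 223, 207, 210.0 and 190.2 FPKM with vehicle, with no overlap between the groups (log2 fold change -1.12 with a standard error of 0.08 and a limma adjusted p of 1.12e-06). Among NDUFB genes, whose products sit in the membrane arm, 10 of 11 were lower and 0 were higher, and among NDUFA genes 10 of 13 were lower and 2 were higher. All 3 NDUFV genes, 6 of 8 NDUFS genes and 1 of 2 NDUFC genes were lower. The members that did not pass were NDUFS3, NDUFS4, NDUFB3, NDUFA9 and NDUFC1, with log2 fold changes from -0.07 to 0.09. NDUFV2 and NDUFB5 were the only genes called lower in complex I whose groups overlapped. On the TPM scale NDUFV2, NDUFA10, NDUFA11, NDUFA1, NDUFB5, NDUFS1 and NDUFA12 no longer passed the test. NDUFS4 (0.13, limma adjusted p = 0.0488), NDUFA9 (0.18, limma adjusted p = 0.0287) and NDUFC1 (0.26, limma adjusted p = 0.000513) then passed as higher.

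The 2 complex I genes that were higher were NDUFA5 and NDUFA4. NDUFA5 (ENSG00000128609), an accessory subunit of the matrix arm, had 157, 156, 187 and 168 FPKM with JIB-04, against 73.7, 95.1, 99.8 and 116 FPKM with vehicle. The lowest JIB-04 sample was above the highest vehicle sample, which was replicate 4 (log2 fold change 0.81 with a standard error of 0.13 and a limma adjusted p of 0.00029). The value is uncertain because the pseudogene NDUFA5P11 was listed at a mean of 101 FPKM over the 8 samples, beside 132 FPKM for NDUFA5 itself, and reads of near-identical copies may be shared between them. With all pseudogene entries added to the parent gene the log2 fold change was 0.77. NDUFA4, first assigned to complex I by its name and now to complex IV, had 308, 306, 313 and 308 FPKM with JIB-04, against 213, 242, 252 and 237 FPKM with vehicle. All JIB-04 samples were above all vehicle samples (log2 fold change 0.39, limma adjusted p = 0.000105), but once a trend on GC content and length was removed from each sample the log2 fold change was 0.06, with an adjusted p of 0.322.

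**Figure D3:**
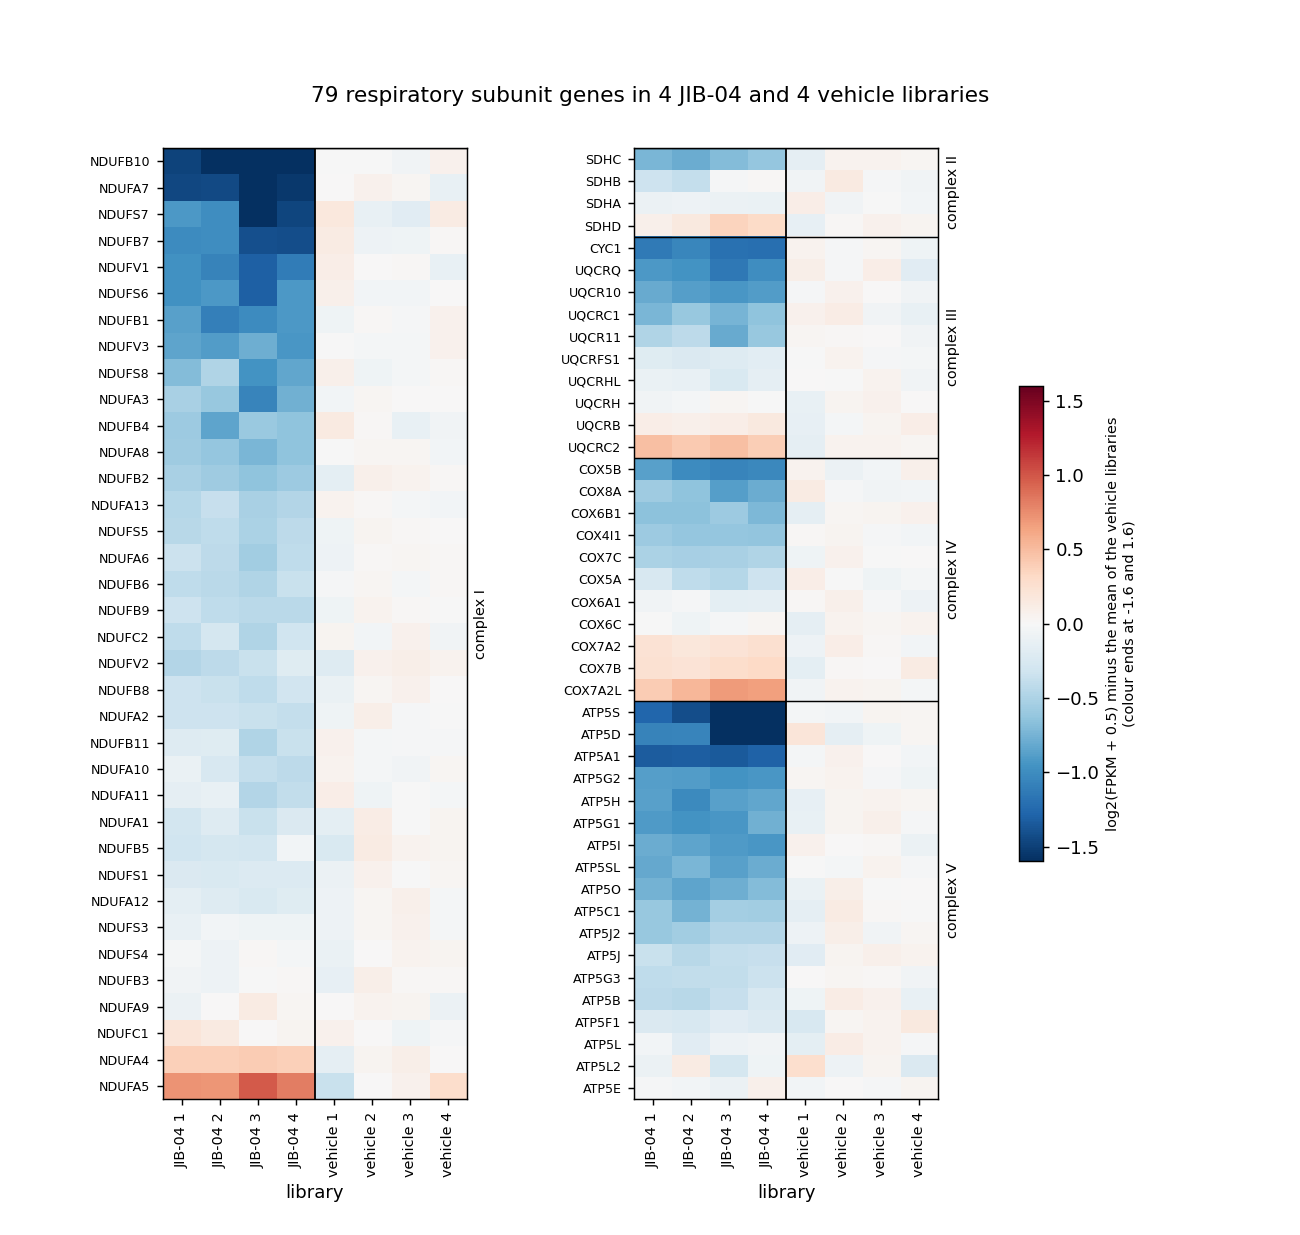
Level of 79 of the 80 tested genes (one line each, sorted from the largest fall to the largest rise within its complex) in the 4 JIB-04 samples (left) and 4 vehicle samples (right), as log2(FPKM + 0.5) minus the mean of the vehicle samples. Blue is below and red above that mean, and values past an end of the color scale take the color of that end. NDUFB10, NDUFA7, ATP5S and ATP5D are the deepest blue lines, with log2 fold changes of -1.63, -1.58, -1.50 and -1.40, and JIB-04 replicates 3 and 4 are bluer than 1 and 2 in NDUFS7, NDUFB7 and ATP5D.

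Complex II, which is also the succinate dehydrogenase of the citric acid cycle, did not move in 1 direction. SDHC, a membrane anchor, had 165, 157, 169.9 and 178 FPKM with JIB-04, against 249, 285, 285 and 279 FPKM with vehicle, lower in all JIB-04 samples (log2 fold change -0.71 with a standard error of 0.06 and a limma adjusted p of 3e-06). SDHD, the other anchor, had 168, 177, 203 and 197 FPKM with JIB-04, against 145, 162, 167 and 165 FPKM with vehicle, the lowest JIB-04 sample just above the highest vehicle sample (log2 fold change 0.22 with a standard error of 0.07 and a limma adjusted p of 0.019). That call rested on single samples, since the adjusted p was 0.0504 without JIB-04 replicate 3 and 0.0551 without replicate 4. SDHA, the flavoprotein that oxidizes succinate, had 135, 136, 135 and 133 FPKM with JIB-04, against 155, 139, 143 and 139.8 FPKM with vehicle. All JIB-04 samples of SDHA were below all vehicle samples, but the difference did not pass the test (log2 fold change -0.10, limma adjusted p = 0.0726), with a 95% confidence interval of -0.19 to 0.00 on the log2 scale. SDHB, the iron-sulfur subunit, had 313, 304, 391 and 400.0 FPKM with JIB-04, against 379, 435, 389 and 381 FPKM with vehicle. Its JIB-04 samples fell apart, replicates 1 and 2 below all vehicle samples and replicates 3 and 4 within their range, and the difference did not pass the test (log2 fold change -0.18, limma adjusted p = 0.127). Without JIB-04 replicate 4 it was -0.24 with an adjusted p of 0.0475, so that 2 complex II genes were then lower and 0 higher.

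In complex III the largest fall was that of CYC1 (ENSG00000179091), cytochrome c1, 1 of the 2 nuclear catalytic subunits, which had 341, 362, 327 and 323 FPKM with JIB-04, against 776, 735, 761 and 711 FPKM with vehicle. No JIB-04 sample came near the vehicle range (log2 fold change -1.14 with a standard error of 0.05 and a limma adjusted p of 4.43e-08). UQCRFS1, the Rieske iron-sulfur protein and the other catalytic subunit, had 61.4, 59.6, 60.7 and 62.3 FPKM with JIB-04, against 70.1, 72.9, 69.2 and 68.5 FPKM with vehicle. The groups did not overlap (log2 fold change -0.20 with a standard error of 0.04 and a limma adjusted p of 0.00156), but on the TPM scale the difference was -0.04 and did not pass, and UQCRFS1P1 was listed at a mean of 15.3 FPKM. With the trend on GC content and length removed, UQCRFS1 was at -0.46 (limma adjusted p = 5.14e-06). Of the small accessory subunits, UQCRQ and UQCR10 had log2 fold changes of -1.01 and -0.88. The 2 core proteins went opposite ways. UQCRC2 had 399, 379.7, 399 and 375 FPKM with JIB-04, against 258, 295, 297 and 292 FPKM with vehicle, higher in every JIB-04 sample (log2 fold change 0.44 with a standard error of 0.05 and a limma adjusted p of 4.15e-05), whereas UQCRC1 was lower (log2 fold change -0.68, limma adjusted p = 5.17e-06). UQCRH, the hinge protein, and UQCRB did not pass the test, with log2 fold changes of -0.01 and 0.11. UQCRHL, an intronless copy of UQCRH whose reads may be shared with it, was lower (log2 fold change -0.15, limma adjusted p = 0.0173). It had a log2 fold change of 0.01 on the TPM scale and of -0.31 with the trend on GC content and length removed (limma adjusted p = 0.000114).

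Complex IV subunits that many tissues share had mean levels of 81.5 to 808 FPKM with JIB-04 and 145 to 1148 FPKM with vehicle. COX5B had the largest fall, with 88.95, 80.5, 77.6 and 79.0 FPKM with JIB-04, against 169, 153, 157 and 171 FPKM with vehicle, and the groups did not overlap (log2 fold change -0.99 with a standard error of 0.06 and a limma adjusted p of 3.95e-07). COX4I1, the common form of subunit 4, which binds adenine nucleotides, had 614, 603, 600.4 and 597 FPKM with JIB-04, against 936, 950.0, 912 and 893 FPKM with vehicle, with little spread in each group (log2 fold change -0.61 with a standard error of 0.03 and a limma adjusted p of 1.6e-07). COX8A (log2 fold change -0.72, limma adjusted p = 1.49e-05) and COX6B1, on the side that receives cytochrome c (log2 fold change -0.65, limma adjusted p = 3.5e-06), were lower too, as were COX7C (log2 fold change -0.51, limma adjusted p = 1.37e-06) and COX5A (log2 fold change -0.36, limma adjusted p = 0.000221). For COX6B1 pseudogene entries held 26.8% of the combined FPKM, and for COX7C 22.9%. COX6A1 and COX6C did not pass the test, at -0.09 and -0.01, and for COX6A1 the pseudogene COX6A1P2 was listed at a mean of 364 FPKM, beside 367 FPKM for the gene.

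The 3 genes placed in complex IV by name that were higher were all of the COX7 family, and NDUFA4, counted above with complex I, was higher too. COX7A2L, which joins complexes III and IV into supercomplexes, had 192, 210.4, 234 and 229 FPKM with JIB-04, against 139, 151, 150.0 and 142 FPKM with vehicle. Every JIB-04 sample was above every vehicle sample, with replicates 3 and 4 the highest (log2 fold change 0.57 with a standard error of 0.07 and a limma adjusted p of 3.65e-05). COX7B had 211, 208, 216 and 223 FPKM with JIB-04, against 160.3, 179.6, 179 and 195 FPKM with vehicle, and the 2 groups were likewise apart (log2 fold change 0.27, limma adjusted p = 0.00255). COX7A2, the form of subunit 7A found in most tissues, had 778, 757, 778 and 797 FPKM with JIB-04, against 629, 717, 672 and 647 FPKM with vehicle, again without overlap (log2 fold change 0.22, limma adjusted p = 0.00133). With the trend on GC content and length removed, the log2 fold changes were 0.37 for COX7A2L, 0.15 for COX7A2 and 0.02 for COX7B, the last with an adjusted p of 0.678. Pseudogene entries held 22.8% of the combined FPKM for COX7B and 18.2% for COX7A2.

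Tissue-specific forms of complex IV subunits did not take the place of the common forms in either group. COX4I2, the form of subunit 4 known from lung, and COX6A2, the form of 6A known from heart and skeletal muscle, were listed at 0 in all 8 samples. COX7A1, the muscle form of 7A, was listed at 0.248, 0, 0.0971 and 0 FPKM with JIB-04 and at 0 with vehicle. COX6B2, COX7B2 and COX8C, known from testis, had at most 0.359 FPKM in any sample. These 6 genes were below the filter and were not tested, and a value of 0 in such a table can be a failed estimate. Outside the members, NDUFA4L2, a paralog of NDUFA4 known to be induced in hypoxia, had 2.82, 1.44, 0.558 and 0.979 FPKM with JIB-04, against 0.836, 0.684, 0.708 and 0.751 FPKM with vehicle. JIB-04 replicate 1 was the highest and replicate 3 the lowest of all 8 samples, and the difference did not pass the test (log2 fold change 0.52, limma adjusted p = 0.167).

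**Figure D4:**
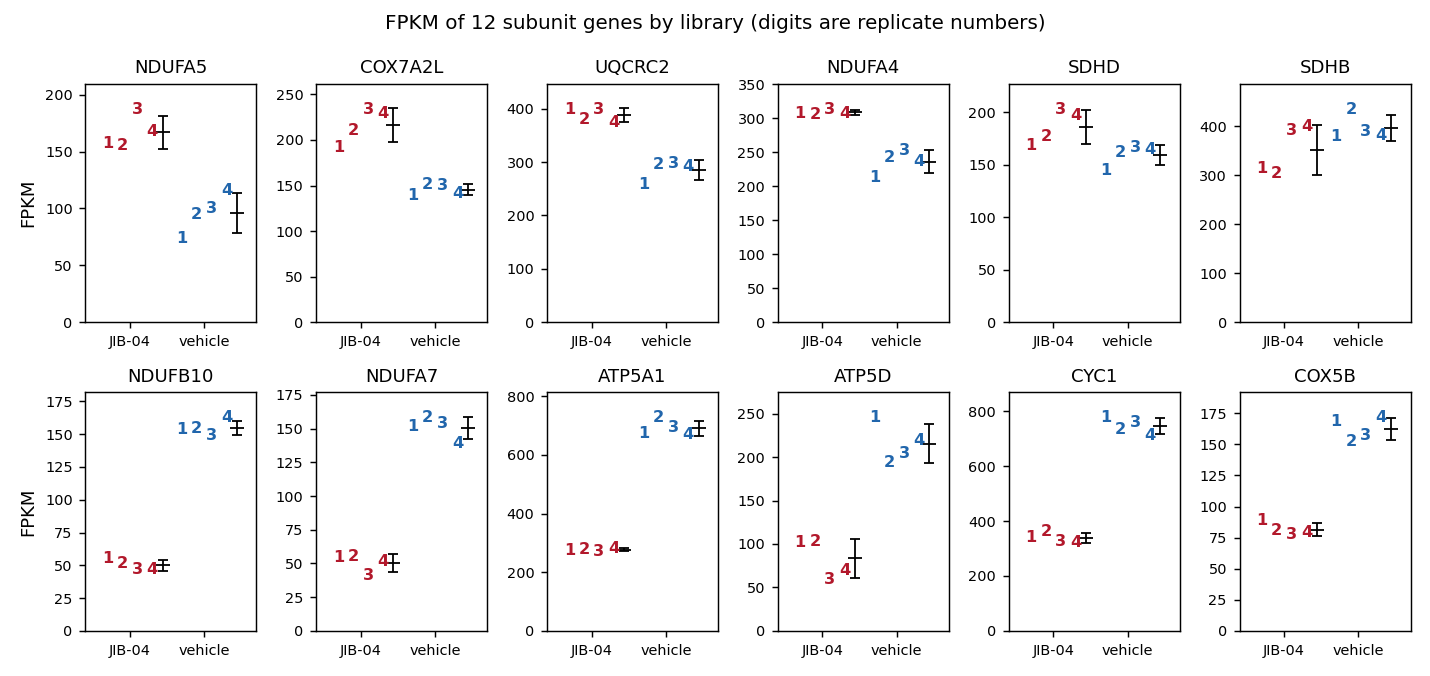
FPKM of 12 subunit genes with JIB-04 (left, red) and vehicle (right, blue). Digits mark the replicate number of each sample, and the lines beside them are the mean and SD of the 4 samples, on axes that start at 0. The upper row holds 5 genes that were higher and SDHB, for which JIB-04 replicates 1 and 2 lie below 3 and 4, and the lower row holds 6 genes whose JIB-04 samples all lie below the vehicle samples.

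In complex V, 15 of 18 genes were lower and 0 were higher. ATP5A1 (now ATP5F1A, ENSG00000152234), the alpha subunit of the catalytic head, had 273, 277, 271 and 282 FPKM with JIB-04, against 673.03, 726, 694 and 670.0 FPKM with vehicle. It had the smallest adjusted p of all members (log2 fold change -1.32 with a standard error of 0.04 and a limma adjusted p of 5.06e-09). ATP5B (ATP5F1B), the beta subunit that carries the catalytic sites and the member with the highest level, had 1519, 1500.2, 1581 and 1699 FPKM with JIB-04, against 1943, 2201, 2138 and 1871 FPKM with vehicle. The highest JIB-04 sample was below the lowest vehicle sample, and the fall was smaller than that of ATP5A1 (log2 fold change -0.37 with a standard error of 0.06 and a limma adjusted p of 0.000429). ATP5D (ATP5F1D), the delta subunit of the rotor, had 102, 102, 59.5 and 69.5 FPKM with JIB-04, against 245, 194, 204 and 219 FPKM with vehicle. Its groups were far apart, and replicates 3 and 4 were the lowest JIB-04 samples (log2 fold change -1.40 with a standard error of 0.18 and a limma adjusted p of 6.85e-05). The gamma subunit gene ATP5C1 was lower (log2 fold change -0.61, limma adjusted p = 2.84e-05), while ATP5E, for the epsilon subunit, did not pass the test (-0.02). For ATP5E the pseudogene ATP5EP2 was listed above the gene itself, at a mean of 155 FPKM, so that its value is uncertain.

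Outside the catalytic head, all 3 genes that encode the c subunit of the rotor ring were lower, with log2 fold changes of -0.89 for ATP5G1, -0.91 for ATP5G2 and -0.38 for ATP5G3. They encode the same mature protein with different import signals, and ATP5G2 had 507, 501, 477 and 488 FPKM with JIB-04, against 949.8, 965, 919 and 889 FPKM with vehicle. Its groups did not overlap. ATP5G3 had 609, 612, 613 and 634 FPKM with JIB-04, against 809, 823, 813 and 774 FPKM with vehicle, so that ATP5G2 was the lower of this pair in every JIB-04 sample and the higher in every vehicle sample. All 4 genes of the peripheral stalk were lower, ATP5H at -0.90, ATP5O at -0.77, ATP5J at -0.39 and ATP5F1 at -0.22, and for ATP5F1 the groups overlapped and the call was lost on leaving out any 1 of 6 samples, JIB-04 replicates 1, 2 and 4 and vehicle replicates 2, 3 and 4, at a limma adjusted p of 0.0552 to 0.0702. Of the small membrane subunits, ATP5I (-0.87) and ATP5J2 (-0.53) were lower and ATP5L (-0.09) did not pass. ATP5S and ATP5SL carry the name of this complex but encode accessory proteins, ATP5SL (DMAC2) being known as a complex I assembly factor. ATP5S, the least expressed tested member, had 6.47, 5.76, 4.76 and 4.82 FPKM with JIB-04, against 15.9, 15.8, 16.7 and 16.6 FPKM with vehicle, and the groups were apart (log2 fold change -1.50, limma adjusted p = 9.06e-07). ATP5SL was lower as well (log2 fold change -0.80, limma adjusted p = 2.65e-07), and without these 2 genes and the copies UQCRHL and ATP5L2, 56 of 76 tested members were lower and 7 were higher.

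Base composition moved with these changes. Over the 80 members the log2 fold change and the GC content of the transcripts had a Spearman rho of -0.62 (Pearson r -0.62), and over 12251 protein-coding genes rho was -0.32. These are descriptions over genes, which share the same 8 libraries and are not independent. Of the 27 members with a GC content of 52% or more, 25 were lower and 0 higher, whereas 56.3% and 25.8% of protein-coding genes in that range were. Of the 33 members from 45% to 52%, 25 were lower and 2 higher, beside 38.5% and 40.8% of protein-coding genes. Of the 20 members under 45%, 9 were lower and 5 higher, beside 24.5% and 53.6%. A smooth trend on GC content and length was then removed from each sample, fitted over all genes to its deviations from the gene means. With that trend removed, 63 members were lower and 6 were higher, beside 40.5% and 32.5% of all genes, with a median of -0.45 for members and -0.11 for all genes. NDUFA11 was then on the other side of 0, at 0.09 with an adjusted p of 0.0291, beside -0.28 (adjusted p = 0.0131) without that step. Falls were smaller for ATP5D (-0.84), NDUFS7 (-0.72), CYC1 (-0.74) and NDUFV1 (-0.81), which were then less than 2-fold. NDUFB10 (-1.37), NDUFA7 (-1.42), ATP5A1 (-1.38) and ATP5S (-1.54) stayed more than 2-fold lower. NDUFA13 (-0.10, limma adjusted p = 0.101) and NDUFB11 (-0.02, limma adjusted p = 0.595) lost their calls as lower, and NDUFA4 and COX7B theirs as higher. The part that base composition has in these results was not tested.

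**Figure D5:**
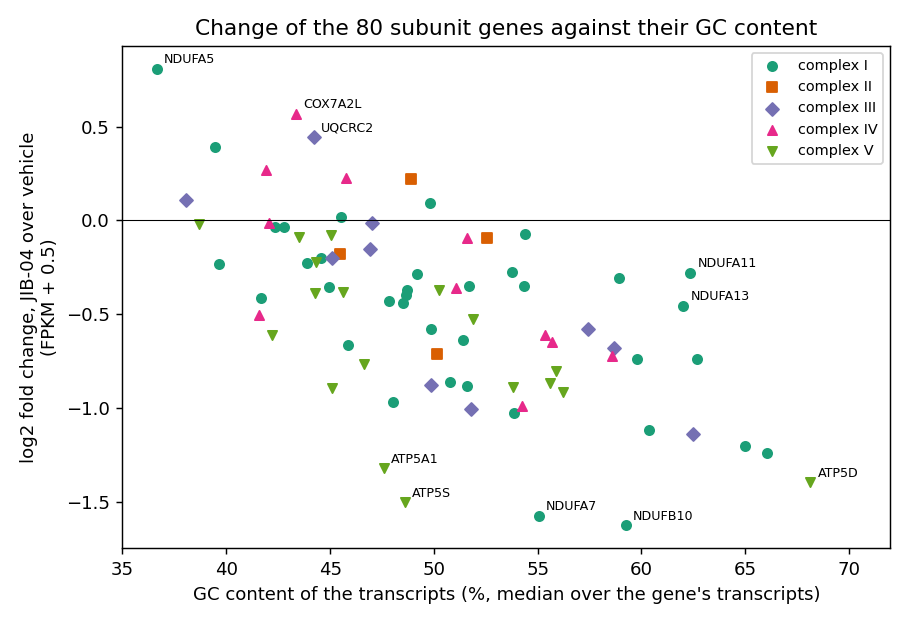
Log2 fold change (JIB-04 over vehicle, FPKM + 0.5) of the 80 tested subunit genes against the GC content of their transcripts in percent, with a marker for each complex. Genes with more GC lie lower, with a Spearman rho of -0.62. ATP5A1 and ATP5S lie below genes of like GC content, NDUFA11 and NDUFA13 lie above theirs, and NDUFA5 has the lowest GC content at 36.6%.

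The JIB-04 samples were not alike for all members. Replicates 3 and 4 both lay below replicates 1 and 2 for 30 of 80 members and both above for 19, as for 30.2% and 18.2% of all genes. The difference between these pairs ran from -0.67 to 0.36 on the log2 scale over the members, with a Spearman rho of -0.69 with GC content over the members and -0.54 over protein-coding genes. The labels give no batch for these samples. Without replicates 1 and 2, 58 members were lower and 7 higher, and without replicates 3 and 4, 57 were lower and 7 higher, both computed after the samples had been seen. Without vehicle replicate 1, which also stood apart for several members, 61 were lower and 7 higher.

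Genes whose products help to build the complexes went in both directions. Of all genes tested, 38.0% were lower and 34.2% were higher. Median log2 fold changes were -0.66, -0.60, -0.53 and -0.34 for assembly genes of complexes II, III, IV and V. Of 19 complex I assembly genes, 10 were lower and 7 higher, with a median of -0.46 beside -0.07 for all genes. This list counts ATP5SL, also a member by name, and TMEM70, which is also counted with ATP synthase assembly. COA1 (log2 fold change -1.12, limma adjusted p = 3.78e-08) and C17orf89 (NDUFAF8) (log2 fold change -1.15, limma adjusted p = 5.84e-08) were lower, with the smallest adjusted p of the list. Of 27 complex IV assembly genes, 15 were lower and 7 higher, with SURF1 (log2 fold change -1.44, limma adjusted p = 1.27e-07) and COA7 (log2 fold change -1.17, limma adjusted p = 1.81e-07) first by adjusted p. Complex III assembly had 5 of 6 genes lower and 0 higher, led by UQCC2 (log2 fold change -1.29, limma adjusted p = 2.13e-08) and UQCC1 (log2 fold change -0.78, limma adjusted p = 8.22e-07), which are needed for cytochrome b. Complex II assembly had 3 of 4 lower, among them SDHAF1 (log2 fold change -0.92, limma adjusted p = 1.71e-05), and SDHAF2, which is needed to attach the flavin of SDHA, was higher (log2 fold change 0.73, limma adjusted p = 2.14e-06). Of 4 ATP synthase assembly genes 2 were lower and 2 higher: ATPAF1, a chaperone of the beta subunit, had 34.2 ± 1.87 FPKM with JIB-04 and 78.8 ± 3.11 FPKM with vehicle (SD, n = 4 each, log2 fold change -1.19, limma adjusted p = 8.05e-08), and TMEM70 was higher (log2 fold change 0.65, limma adjusted p = 8.89e-07).

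Other parts of the chain outside the naming rule were measured as well, and their counts stand beside 38.0% of all genes lower and 34.2% higher. Of 7 further genes of the chain, with ATP5S counted here as well, 4 were lower and 2 higher, with a median of -0.24 beside -0.07 for all genes. NDUFAB1, the acyl carrier protein that is also a complex I subunit, was lower (log2 fold change -0.34, limma adjusted p = 0.000186), and so was ATPIF1, the inhibitor of ATP synthase (log2 fold change -1.04, limma adjusted p = 1.88e-07). The ATP synthase subunit USMG5 (log2 fold change 0.32, limma adjusted p = 0.00403) and CYCS, cytochrome c itself (log2 fold change 0.21, limma adjusted p = 0.0134), were higher, both without overlap between the groups, and with the trend on GC content and length removed they were at 0.16 and 0.02. C14orf2, another small ATP synthase subunit, was lower (log2 fold change -0.24, limma adjusted p = 0.00341) and was at -0.07 on the TPM scale. Of 13 genes of coenzyme Q synthesis and handling, 7 were lower and 2 higher, with a median of -0.30. COQ10B, a coenzyme Q chaperone, had 34.7, 37.2, 40.2 and 39.1 FPKM with JIB-04, against 8.96, 9.81, 10.2 and 12.2 FPKM with vehicle, more than in any vehicle sample (log2 fold change 1.83, limma adjusted p = 1.89e-07), and COQ2, the prenyltransferase of the pathway, was lower (log2 fold change -1.09, limma adjusted p = 8.61e-07). The mRNAs of the mitochondrial genome encode the partners of these subunits, and 11 of 13 were lower. MT-CO3 (log2 fold change -3.04, limma adjusted p = 2.93e-09), MT-ND6 (log2 fold change -2.82, limma adjusted p = 1.32e-08) and MT-CO2 (log2 fold change -2.44, limma adjusted p = 1.4e-08) were the largest falls, and MT-CO1, MT-CYB, MT-ND5, MT-ATP6, MT-ATP8, MT-ND4, MT-ND4L and MT-ND3 had log2 fold changes from -2.07 to -0.93. MT-ND1 (log2 fold change 0.69, limma adjusted p = 3.31e-05) and MT-ND2 (log2 fold change 0.42, limma adjusted p = 0.00107) were higher, and both encode complex I subunits.

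Regulators known to drive respiratory genes were called in both directions: of 14 tested, 7 were higher and 6 were lower, beside 34.2% and 38.0% of all genes, with a median of 0.01 beside -0.07 for all genes. GABPA, the ETS subunit of GABP, had 19.6, 16.2, 26.5 and 20.3 FPKM with JIB-04, against 7.75, 7.60, 7.22 and 9.09 FPKM with vehicle, higher in every JIB-04 sample (log2 fold change 1.31 with a standard error of 0.14 and a limma adjusted p of 2.2e-05). TFAM, which packages and transcribes the mitochondrial genome, was higher (log2 fold change 0.56, limma adjusted p = 0.000272), as was TFB2M, a factor of mitochondrial transcription (log2 fold change 0.90, limma adjusted p = 1.56e-06). NRF1 had 11.97, 11.9, 12.5 and 12.01 FPKM with JIB-04, against 18.8, 19.6, 19.8 and 17.5 FPKM with vehicle, lower in every JIB-04 sample (log2 fold change -0.62 with a standard error of 0.06 and a limma adjusted p of 1.28e-05). The coactivator PPARGC1B was lower (log2 fold change -1.16, limma adjusted p = 1.02e-06). ESRRA, a nuclear receptor partner of these coactivators, was lower by a small amount (log2 fold change -0.27, limma adjusted p = 0.0319) and was on the other side of 0, at 0.15, with the trend on GC content removed. PPARGC1A was below the filter, at a mean of 0.124 FPKM with JIB-04 and listed at 0 with vehicle.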

How the data were processed

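RNA-seq of 8 A673 samples was analyzed. The submitters' processing notes name GSNAP, SAMtools and Cufflinks with the GRCh38 build. The deposited values are FPKM, which Cufflinks gives and which the authors made from directional single-end reads, and they were taken as they are. The labels and the study's methods give different read lengths. The table holds 66095 entries for 65975 identifiers. Entries of the 117 identifiers listed more than once were summed, and 13 genes with placeholder values, none of them a member, were left out. Where 1 symbol had several identifiers the one with the highest mean was kept (5 symbols).

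All 17460 genes whose mean reached 1 FPKM were tested on log2(FPKM + 0.5), where fold changes of weakly expressed genes come out too small. The test was limma 3.58.1 (lmFit, then eBayes with a trend) run in R 4.3.3 on the 8 samples, p-values were adjusted by Benjamini-Hochberg (threshold 0.05), and the script was tested on simulated data. The authors' methods name a per-gene analysis of variance, which was an alternative beside other pseudocounts (0.1 and 1), other filters (none, or a mean of 5 FPKM), TPM over all or over nuclear genes, median-ratio and quantile scaling, removal of a trend on GC content and length, a replicate block and leaving out each sample. Steps between values below 0.3 FPKM gave the relative depth. GENCODE 29 gave GC content and length, as medians over a gene's transcripts, and RefSeq gave promoters.

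The members and the lists were chosen with earlier results of these data known. Genes named are the 3 largest rises and falls that passed in complexes I, III, IV and V, all SDH genes, tissue isoforms, catalytic subunits, chosen regulators, and up to 2 genes of each neighboring list with the smallest adjusted p. NDUFA11, UQCRHL, ATP5SL and the other members given with values outside this rule were chosen after their values were seen, as were USMG5, CYCS, C14orf2, BCL11B and NR0B1, and 1 member that the rule names is not reported here. Tables and plots were made in Python 3.11.15 with pandas 2.3.3, numpy 2.4.6 and matplotlib 3.10.9.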

Additional observations from a re-analysis of the deposited data

Results flagged for a closer look

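For 12 of 160 sets of 4 samples (7.50%), 1 sample lay apart from the other 3 by Dixon's criterion, which chance meets in about 1 of 20 sets. Of these 12, 10 concerned vehicle replicate 1. It had the lowest vehicle value for NDUFA6 (265.9 FPKM, the others 286.5 to 289.3), NDUFV2 (65.86, the others 79.26 to 81.08), SDHC (249, the others 279.4 to 284.9), UQCRC2 (258.1, the others 292.3 to 296.8), COX6B1 (374.9, the others 424.7 to 432.4), COX6C (367.3, the others 415.9 to 425.1), ATP5H (326.7, the others 364.8 to 371.9) and ATP5J (310.4, the others 361.6 to 370.1). The same sample had the highest vehicle value for NDUFB11 (403.9 FPKM, the others 379.1 to 382.7) and COX8A (997.9 FPKM, the others 881.9 to 901.0). Without it, 61 members were lower and 7 higher, and none of the called members among these genes lost its call.

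With JIB-04, NDUFS6 had 56.02 FPKM in replicate 3, where the other 3 samples had 71.01 to 73.70 FPKM. NDUFB5 had 115.9 FPKM in JIB-04 replicate 4, where the others had 96.17 to 98.30 FPKM. Without JIB-04 replicate 1 the log2 fold change of NDUFB5 was -0.21 with a limma adjusted p of 0.0976, so that its call was lost there. It was also lost without JIB-04 replicates 2 or 3 and without vehicle replicates 2, 3 or 4, at adjusted p of 0.0886 to 0.111.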

How the results depend on the processing

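In 24 alternative settings, 3 of which were chosen after the data had been seen (leaving out JIB-04 replicates 1 and 2, or 3 and 4, and adding pseudogene entries to their genes), the members lower with JIB-04 numbered 49 to 63 and those higher 5 to 15. Leaving out 1 sample at a time gave 56 to 61 lower and 6 to 8 higher. On the TPM scale 14 members were higher, with 5 in complex I, 3 in complex III and 1 in complex V, and with the replicate block in addition 15 were, with 6, 3 and 1. Complex III had 2 genes higher with TPM over nuclear genes, median-ratio scaling or quantile normalization, and 1 to 2 on leaving out a sample. Complex II had 0 to 1 genes higher and 1 to 2 lower on leaving out a sample, 0 and 2 without JIB-04 replicates 3 and 4, and 2 lower with the GC and length trend removed. With that trend removed and the replicate block, 2 were lower in complex II and 1 higher in complex I. The same replicate numbers in both groups did not pair the samples: same-number correlations of deviations ran from -0.06 to 0.08, and 1 of 4 JIB-04 samples correlated best with its own number. The replicate block alone gave 59 members lower, 7 higher and, for JIB-04 against vehicle, all genes, 12518 calls beside 12604, and changed no member's call.

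Some small differences changed sign with the scale. On the TPM scale the log2 fold changes were 0.068 for SDHA, 0.012 for UQCRHL, 0.15 for UQCRH, 0.071 for COX6A1, 0.15 for COX6C, 0.074 for ATP5L and 0.15 for ATP5E, the same with the replicate block added, and UQCRH, COX6C and ATP5E then passed the test as higher. UQCRB, at 0.27 on that scale, passed as higher too (limma adjusted p = 0.00177 without the block). With TPM over nuclear genes UQCRH was at 0.068, COX6C at 0.069 and ATP5E at 0.065, and with median-ratio scaling at 0.047, 0.047 and 0.043. Quantile normalization gave 0.13 for UQCRH, 0.035 for COX6A1, 0.13 for COX6C and 0.031 for ATP5L. With the GC and length trend removed, with or without the replicate block, NDUFA11 was at 0.091, UQCRB at -0.27 and ESRRA at 0.15. In both of these settings UQCRB passed the test as lower. So did COX6C (-0.24), ATP5L (-0.28), ATP5E (-0.46), NDUFS4 (-0.24), NDUFB3 (-0.24) and SDHB (-0.30), with limma adjusted p from 4.22e-05 to 0.0419. UQCRB, COX6C, ATP5E and NDUFS4 were thus called in opposite directions on the TPM scale and in these settings. Without JIB-04 replicates 1 and 2, SDHB was at 0.00039, UQCRH at 0.015 and COX6C at 0.0058. Leaving out 1 sample gave -0.063 to 0.0071 for COX6C, -0.0500 to 0.0059 for ATP5E and -0.052 to 0.0072 for UQCRH. The causes were not tested.

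FPKM hold no read counts, so no counting error could be given, and the spread between samples is the only measure of precision. Values of genes with expressed pseudogenes, 17 of 38 of which had over 10% of the combined FPKM in the pseudogenes, depend on how shared reads were assigned.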
